A study of Mus musculus with 8 samples.

Results

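The genes described here encode subunits of the ionotropic receptors for GABA, glycine and glutamate, the ligand-gated channels that carry fast synaptic signals in the brain. They were chosen by name, 32 in all, and 31 of them had a probe set assigned to a single gene symbol, out of 19938 genes named in this way on 35556 probe sets. *Grin1* had no such probe set in the annotation used and was not analysed here. Only *Gabrb2* had more than 1 probe set, and it was represented by the probe set with the highest mean.

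Expression was measured on 8 Affymetrix Mouse Gene ST arrays, in 4 groups of 2 technical replicate arrays each. The lateral domain and the mdDA domain (the territory of the mesodiencephalic dopaminergic neurons in the ventral midbrain, VM) were laser-microdissected from fixed sections of pooled E12.5 embryos of strain B6D2F1 (mixed) and genotype BAT-gal, a transgene in which LEF1/TCF binding sites and a minimal promoter drive b-GAL. The mdDA domain was cut where b-GAL and PITX3 were both stained, and the lateral domain where neither was. The other two groups were GFP+ mdDA neurons, sorted by FACS from the VM of E13.5 and E14.5 embryos of genotype Pitx3GFP/+ and strain C57BL/6 x 129/Ola (mixed), in which GFP occupies a single *Pitx3* allele. Embryo sex was not determined in any group.

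Receptors for GABA and glycine are pentamers with a chloride pore. In adult neurons they are mostly inhibitory, whereas in embryonic neurons, whose internal chloride is high, they can depolarise the cell. Receptors for glutamate are tetramers and fall into AMPA, kainate, NMDA and delta classes, and subunit composition sets their kinetics and calcium permeability. Midbrain dopaminergic neurons receive both kinds of input, and glutamate drives their burst firing in the adult.

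Values are log2 RMA intensities, so that a difference of 1 is a doubling of signal, and a level was compared between groups but not between genes. As a low-signal level, the 95th percentile of 1035 olfactory receptor probe sets was taken on each array, which lay between 4.07 and 4.50. Of the 31 subunits, 13 were above it on all 8 arrays, 11 on some and 7 on none, and 21 were above it on at least 2 arrays. The 7 subunits at or below it everywhere were *Gabra4*, *Gabra6*, *Gabre*, *Glra1*, *Glra3*, *Grin2a* and *Grin2c*, with levels of 2.66 to 4.15. Group means were lowest in the lateral domain, intermediate in the mdDA domain and highest in the sorted neurons (both stages averaged) for 18 of the 31 subunits. They were highest in the mdDA domain for 8, lowest there for 3, and in the reverse order for 2. These counts include the 7 subunits at or below the low-signal level. The shares over all probe sets were not computed, so the counts have no reference.

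**Figure D1:**
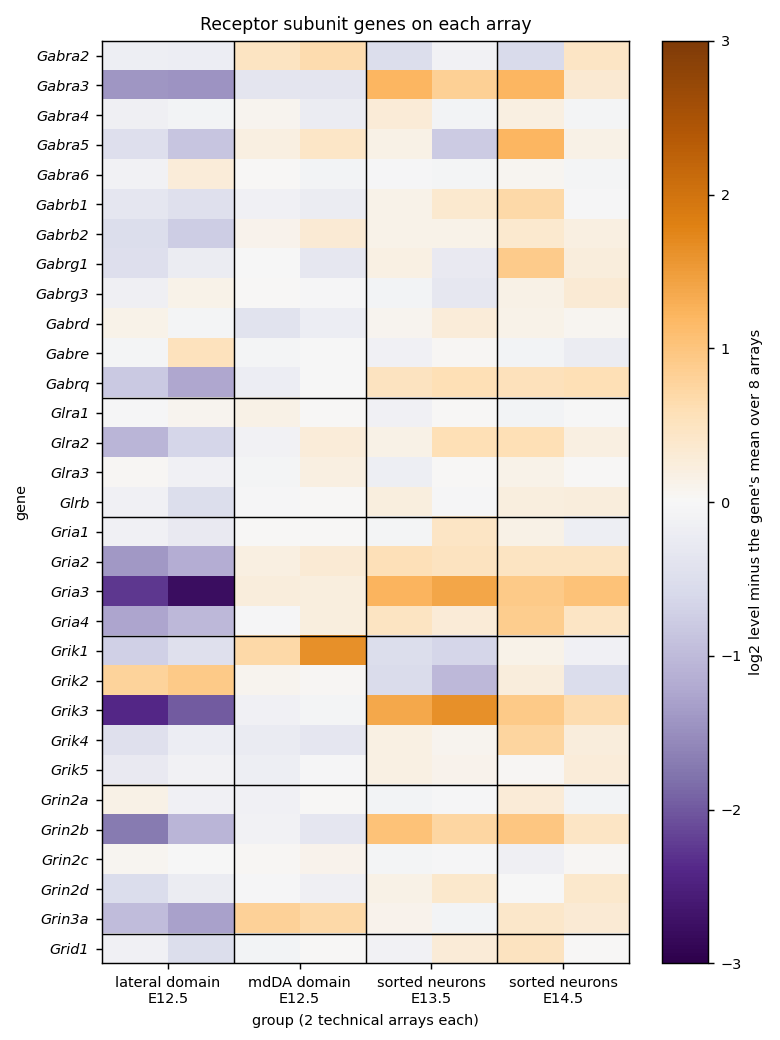
Level of each of the 31 receptor subunit genes (vertical axis, grouped by class) on each of the 8 arrays (horizontal axis), drawn as the log2 difference from that gene's mean over the arrays. *Gria3*, *Grik3* and *Gria2* are low on both arrays of the lateral domain, and *Grik1* is highest on those of the mdDA domain.

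The comparison of the mdDA with the lateral domain asks which transcripts mark the tissue that holds the dopaminergic lineage. Of the 31 subunits, 8 were higher in the mdDA domain at FDR < 10% and 0 were lower (limma with the replicate number as a block, Benjamini-Hochberg over all probe sets). The replicate numbers did not visibly pair the arrays. On simulated data this blocked fit made more false calls than its nominal rate, so 10% is a nominal value here. Over all probe sets, 2.62% were called in either direction, 1.52% as higher and 1.10% as lower. The 8 were 3 of 4 AMPA subunits, 2 of 5 kainate subunits, 1 of 5 NMDA subunits, 1 of 12 GABAA subunits and 1 of 4 glycine subunits. The median difference of the 31 was 0.28 on the log2 scale, against -0.01 over all probe sets. On the arrays themselves, 18 subunits were higher on both mdDA arrays than on both lateral arrays and 2 were lower, beside 20.4% and 23.3% of all probe sets. Replicates are technical, so p-values measure the spread between arrays and not between embryos, and without either mdDA array 0 subunits were called, against 3 and 2 without the lateral arrays. The fits that left out an array had no block, so they changed the model as well as the arrays. Fewer cells of a type and less RNA per cell cannot be told apart in these samples.

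The comparison of the sorted neurons with the mdDA domain sets dopaminergic neurons against tissue that also contains other cells. As the mean of both stages against the mdDA domain, 7 subunits were higher and 2 lower (limma over all 8 arrays, no block, FDR < 10%). Here 18.4% of all probe sets were called, 8.53% as higher and 9.84% as lower. Stage, strain, genotype and isolation method all differed between these groups and cannot be told apart, and the mdDA domain arrays enter both this comparison and the preceding comparison. With each array centred on its median, 12 subunits were higher and 1 lower. Without either mdDA array 1 subunit stayed called as higher, *Grik3*, and 1 as lower, *Grik1*.

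**Figure D2:**
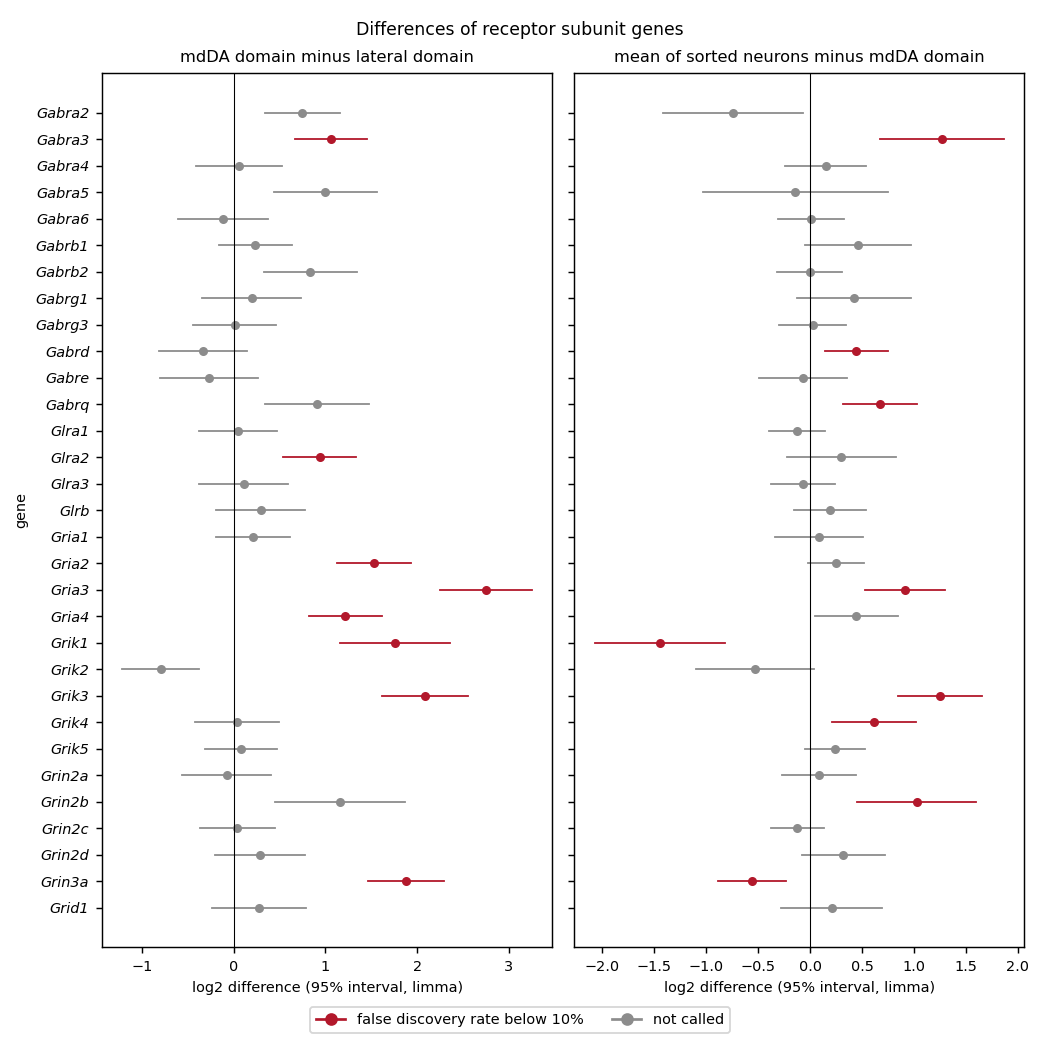
Log2 differences of the 31 receptor subunit genes (vertical axis) with 95% intervals from limma (horizontal axis), for the mdDA minus the lateral domain on the left and the mean of the sorted neurons minus the mdDA domain on the right. Red marks the 8 subunits called on the left, all of them higher, and the 9 called on the right, of which *Grik1* and *Grin3a* were lower.

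AMPA receptors carry most fast excitatory transmission, and their subunits gave the highest share of calls between the dissected domains. *Gria3* had log2 levels of 5.38 and 4.88 in the lateral domain, 7.90 and 7.86 in the mdDA domain, 8.87 and 9.06 in E13.5 neurons and 8.56 and 8.69 in E14.5 neurons. All arrays of the lateral domain were far below the other six, and the sorted neurons were above the mdDA domain. The mdDA domain exceeded the lateral domain by 2.75 ± 0.18 (SE, adjusted p = 0.0340), which is 6.72-fold, and the sorted neurons exceeded the mdDA domain by 0.92 ± 0.16 (SE, adjusted p = 0.0193).

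*Gria2*, whose edited subunit makes AMPA receptors impermeable to calcium, had log2 levels of 6.68 and 6.91 in the lateral domain, 8.27 and 8.37 in the mdDA domain, 8.63 and 8.55 in E13.5 neurons and 8.54 and 8.53 in E14.5 neurons. It was low only in the lateral domain. The difference between the dissected domains was 1.53 ± 0.15 (SE, adjusted p = 0.0529), or 2.89-fold, while that between sorted neurons and mdDA domain was 0.24 with a 95% interval of -0.03 to 0.51 (adjusted p = 0.218). *Gria4*, a subunit prominent before birth, had log2 levels of 5.31 and 5.53 in the lateral domain, 6.51 and 6.77 in the mdDA domain, 7.05 and 6.85 in E13.5 neurons and 7.43 and 7.01 in E14.5 neurons, again with the lateral domain below every other array. Its difference between the dissected domains was 1.22 ± 0.15 (SE, adjusted p = 0.0671), or 2.32-fold, and the sorted neurons were not called against the mdDA domain (0.44, adjusted p = 0.146). *Gria1* was not called in either comparison, with log2 differences of 0.21 (95% interval -0.19 to 0.62) and 0.08 (95% interval -0.34 to 0.50). Without the first and without the second lateral array, the adjusted p between the dissected domains was 0.129 and 0.103 for *Gria2* and 0.180 and 0.150 for *Gria4*, whereas *Gria3* stayed called. Without the first and the second mdDA array, *Gria3* had an adjusted p of 0.129 and 0.136 against the lateral domain and 0.113 and 0.106 in the sorted neurons.

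**Figure D3:**
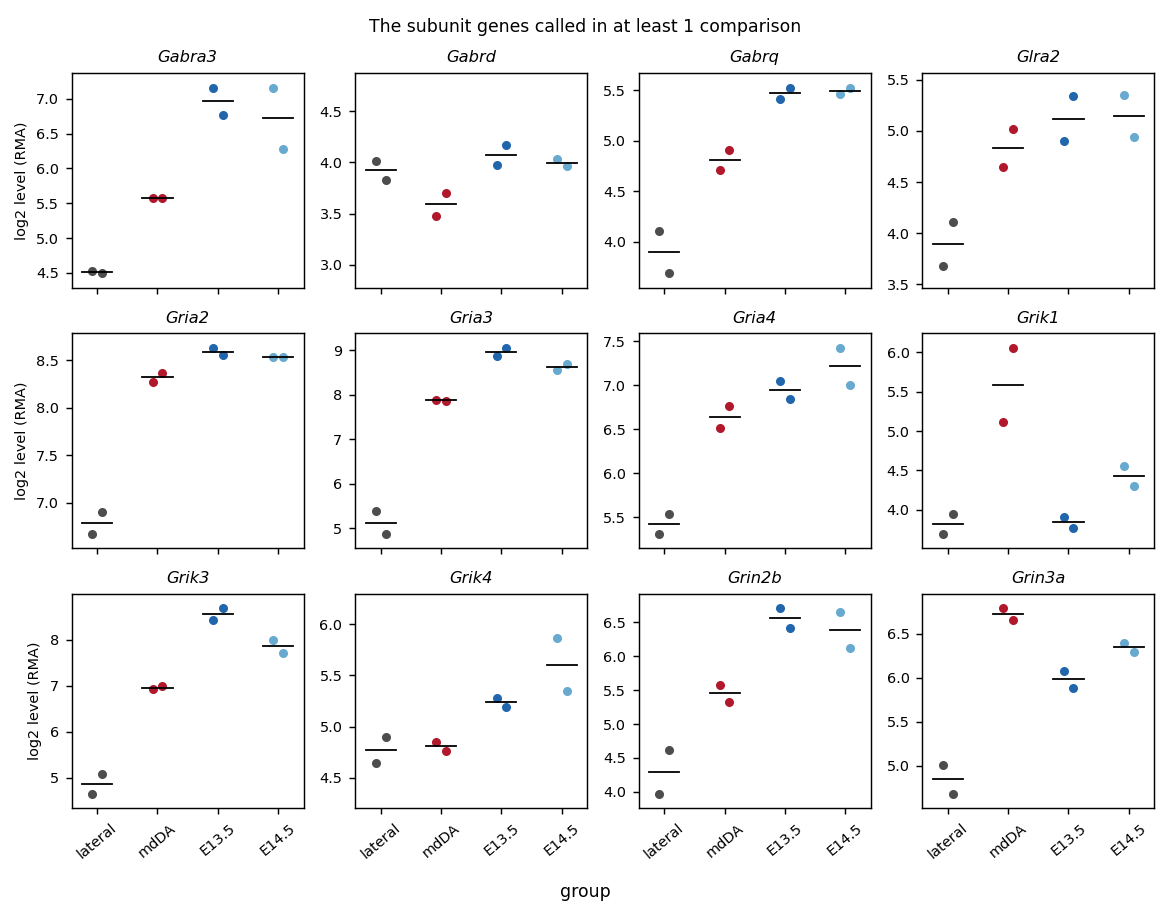
Log2 level (vertical axis) of the subunit genes called in at least 1 comparison, with a point for each array and a bar for the mean of each group of 2 arrays (horizontal axis). The lateral domain is lowest for *Gria3* at 5.38 and 4.88, and *Grik1* peaks in the mdDA domain at 5.11 and 6.06.

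Kainate receptors modulate transmitter release and excitability on both sides of the synapse, and in the sorted neurons their genes were called in both directions. *Grik3* had log2 levels of 4.65 and 5.09 in the lateral domain, 6.92 and 6.99 in the mdDA domain, 8.43 and 8.69 in E13.5 neurons and 7.996 and 7.72 in E14.5 neurons, so that the 4 groups formed separate steps with sorted E13.5 neurons on top. It was higher in the mdDA than in the lateral domain by 2.09 ± 0.17 (SE, adjusted p = 0.0445), or 4.25-fold, and higher again in the sorted neurons by 1.25 ± 0.17 (SE, adjusted p = 0.00979), or 2.38-fold. *Grik1* had log2 levels of 3.70 and 3.95 in the lateral domain, 5.11 and 6.06 in the mdDA domain, 3.91 and 3.78 in E13.5 neurons and 4.56 and 4.30 in E14.5 neurons. Its mdDA arrays stood above every other array but lay almost 1 unit apart, much wider than the SE of the blocked fit. *Grik1* was below the low-signal level on both lateral and both E13.5 arrays, at levels where the array gives little signal. It was higher in the mdDA than in the lateral domain by 1.76 ± 0.22 (SE, adjusted p = 0.0720), while the sorted neurons differed from the mdDA domain by -1.45 ± 0.26 (SE, adjusted p = 0.0213).

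*Grik4*, a kainate subunit with high agonist affinity, had log2 levels of 4.64 and 4.90 in the lateral domain, 4.85 and 4.76 in the mdDA domain, 5.28 and 5.19 in E13.5 neurons and 5.86 and 5.35 in E14.5 neurons. The dissected domains overlapped and both sorted stages were higher, with a log2 difference of 0.62 ± 0.17 (SE, adjusted p = 0.0669) between sorted neurons and mdDA domain. *Grik2* was the subunit with the most negative difference between the dissected domains, -0.80 (adjusted p = 0.137), which did not pass the threshold although the lateral arrays were both above the mdDA arrays. *Grik5*, the other high-affinity subunit, was above the low-signal level on all arrays and was not called, with differences of 0.08 and 0.24. Between the dissected domains, *Grik1* had an adjusted p of 0.297 without the first and 0.242 without the second lateral array, and *Grik3* lost its call only without an mdDA array (0.131 and 0.145). In the sorted neurons, *Grik4* had an adjusted p of 0.115 to 0.240 without any single E13.5 or mdDA array, while *Grik1* and *Grik3* stayed called without each array in turn.

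NMDA receptors combine an obligatory GluN1 subunit with GluN2 or GluN3 subunits, and GluN3 subunits lower calcium entry. *Grin3a* had log2 levels of 5.01 and 4.68 in the lateral domain, 6.79 and 6.66 in the mdDA domain, 6.08 and 5.89 in E13.5 neurons and 6.40 and 6.30 in E14.5 neurons. The mdDA arrays were the highest and the lateral arrays the lowest, with the sorted neurons between them. It was higher in the mdDA than in the lateral domain by 1.88 ± 0.15 (SE, adjusted p = 0.0445), or 3.68-fold, and the sorted neurons differed from the mdDA domain by -0.56 ± 0.14 (SE, adjusted p = 0.0490). With each array centred on its median the latter difference was -0.36 (adjusted p = 0.139), so that this call depended on the scaling.

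*Grin2b*, which codes for the predominant GluN2 subunit of the embryonic brain, had log2 levels of 3.97 and 4.62 in the lateral domain, 5.58 and 5.33 in the mdDA domain, 6.71 and 6.42 in E13.5 neurons and 6.65 and 6.13 in E14.5 neurons. The sorted neurons were above both dissected domains, and the difference from the mdDA domain was 1.02 ± 0.24 (SE, adjusted p = 0.0433), or 2.03-fold. The mdDA arrays exceeded the lateral arrays by 1.16, which did not pass the threshold (adjusted p = 0.180). The first lateral array of *Grin2b* was below the low-signal level. *Grin2d* was not called in either comparison (0.29 and 0.32), and neither was *Grid1*, which codes for a delta receptor subunit (0.28 and 0.21). Without the second lateral array *Grin3a* had an adjusted p of 0.103 between the dissected domains, and without the second E13.5 array of 0.105 in the sorted neurons. Without the first and the second mdDA array, the adjusted p in the sorted neurons was 0.149 and 0.200 for *Grin2b* and 0.240 and 0.138 for *Grin3a*.

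Some neuronal markers moved with *Grik1* and *Grin3a* and others did not. *Isl1*, a transcription factor of motor neurons named here after its values were seen, had log2 levels of 4.00 and 4.52 in the lateral domain, 5.52 and 6.05 in the mdDA domain, 3.96 and 4.15 in E13.5 neurons and 3.71 and 3.82 in E14.5 neurons. It was above the low-signal level only on both mdDA arrays, the second lateral array and the second E13.5 array. The mdDA domain exceeded the lateral domain by 1.52 (adjusted p = 0.0507), and the sorted neurons differed from the mdDA domain by -1.87 (adjusted p = 0.00631). Of the red nucleus and motor neuron list, 5 of 6 genes were measured, and their mean log2 level was 5.55 and 5.67 in the lateral domain, 5.97 and 6.07 in the mdDA domain and 4.81 to 4.93 in the sorted neurons. *Pou4f1*, a red nucleus marker of that list, had log2 levels of 8.42 and 8.60 in the lateral domain, 7.61 and 7.99 in the mdDA domain, 5.36 and 4.77 in E13.5 neurons and 4.75 and 4.69 in E14.5 neurons. It went the other way between the dissected domains, where it was not called (-0.71, adjusted p = 0.164), and the sorted neurons differed from the mdDA domain by -2.91 (adjusted p = 0.00169). Of the pan-neuronal list, the neurofilament gene *Nefl* had log2 levels of 6.18 and 6.20 in the lateral domain, 7.97 and 8.20 in the mdDA domain, 7.46 and 7.47 in E13.5 neurons and 7.30 and 7.23 in E14.5 neurons, highest in the mdDA domain like *Grin3a*, with differences of 1.89 (adjusted p = 0.0445) and -0.72 (adjusted p = 0.0135). *Nefl*, named after its values were seen, was the only 1 of the 8 pan-neuronal genes called between the dissected domains. In the sorted neurons it was the only 1 called as lower, while 2 were higher. The median differences of that list were 0.31 and -0.07. *Phox2a* and *Chat* of the red nucleus and motor neuron list were above the low-signal level on no array. The part of cell composition in the differences of *Grik1* and *Grin3a* was not tested.

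GABAA receptors mostly contain alpha, beta and a further subunit, and the genes of several subunits sit side by side in the genome. In the gene order of the reference table, *Gabra3* and *Gabrq* were neighbours on chromosome X, with *Gabre* 1 protein-coding gene away. *Gabrg1*, *Gabra2*, *Gabra4* and *Gabrb1* lay together on chromosome 5, *Gabrg3* and *Gabra5* on chromosome 7, and *Gabra6* and *Gabrb2* on chromosome 11. *Gabra3*, an alpha subunit typical of the immature brain and of monoaminergic neurons, had log2 levels of 4.53 and 4.49 in the lateral domain, 5.57 and 5.58 in the mdDA domain, 7.16 and 6.77 in E13.5 neurons and 7.16 and 6.28 in E14.5 neurons. Its arrays rose in steps from the lateral domain to the mdDA domain to the sorted neurons, without overlap. The steps were 1.06 ± 0.15 (SE, adjusted p = 0.0781), or 2.08-fold, and 1.27 ± 0.25 (SE, adjusted p = 0.0263), or 2.41-fold.

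*Gabrq*, which codes for the theta subunit, had log2 levels of 4.11 and 3.69 in the lateral domain, 4.71 and 4.91 in the mdDA domain, 5.41 and 5.53 in E13.5 neurons and 5.46 and 5.53 in E14.5 neurons. The same order of groups held, and the sorted neurons exceeded the mdDA domain by 0.68 ± 0.15 (SE, adjusted p = 0.0367), or 1.60-fold, while the difference between the dissected domains did not pass the threshold (0.91, adjusted p = 0.185). Both lateral arrays of *Gabrq* were below the low-signal level. *Gabre* was above it on no array. Of the 4 genes of the chromosome 5 group, *Gabra2* was above it on 4 arrays, *Gabrb1* and *Gabrg1* on 1 and *Gabra4* on 0, and none was called. *Gabrd*, the delta subunit of extrasynaptic receptors, had log2 levels of 4.02 and 3.83 in the lateral domain, 3.48 and 3.70 in the mdDA domain, 3.97 and 4.17 in E13.5 neurons and 4.03 and 3.96 in E14.5 neurons and was above the low-signal level on 1 array. It passed the threshold in the sorted neurons with a difference of 0.44 ± 0.13 (SE, adjusted p = 0.0749), at levels where the array gives little signal. *Gabrd* lost this call with a replicate block (adjusted p = 0.113) and in a fit of only the 6 arrays compared (adjusted p = 0.109). *Gabra3* lost its call between the dissected domains without any single array (adjusted p of 0.151 to 0.164) and in a fit of all 8 arrays with no block (adjusted p = 0.163). Without the first and the second mdDA array, the adjusted p in the sorted neurons was 0.144 and 0.125 for *Gabra3* and 0.205 and 0.109 for *Gabrq*, and that of *Gabrd* was 0.107 to 0.342 without any single array other than the first E13.5 array.

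*Gabrb2*, coding for the beta2 subunit, had log2 levels of 7.96 and 7.69 in the lateral domain, 8.56 and 8.77 in the mdDA domain, 8.57 and 8.59 in E13.5 neurons and 8.81 and 8.65 in E14.5 neurons. It did not pass the threshold between the dissected domains (0.84, adjusted p = 0.173). Its probe sets disagreed on the sorted neurons. The probe set with the highest mean gave -0.01, another gave 0.51 (adjusted p = 0.0338) and the remaining one -0.71 (adjusted p = 0.0295), so that the gene has no settled direction there. *Gabra5* and *Gabra2* were higher on both mdDA arrays than on both lateral arrays, with differences of 1.00 and 0.75 that did not pass the threshold (adjusted p = 0.152 and 0.146). Both genes were below the low-signal level on both lateral arrays. The 11 GABAA subunits not called between the dissected domains had differences of -0.33 to 1.00.

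Glycine receptors of the embryo are built mainly from the alpha2 subunit. Its gene *Glra2* had log2 levels of 3.68 and 4.11 in the lateral domain, 4.65 and 5.02 in the mdDA domain, 4.90 and 5.35 in E13.5 neurons and 5.35 and 4.94 in E14.5 neurons, lowest in the lateral domain. Both lateral arrays were below the low-signal level. *Glra2* was higher in the mdDA domain by 0.94 ± 0.15 (SE, adjusted p = 0.0974), close to the threshold. The sorted neurons were not called against the mdDA domain (0.30, adjusted p = 0.425). *Glrb*, the beta subunit that ties the receptor to gephyrin, was above the low-signal level on all arrays with differences of 0.29 and 0.19, neither called. *Glra2* lost its call with no replicate block (adjusted p = 0.144), in a fit of all 8 arrays with no block (adjusted p = 0.163) and without any single array (adjusted p of 0.208 to 0.394).

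The promoters of 23 of the 32 genes were in the RefSeq promoter table of build GRCm38.p6. The 250 bases before the annotated start, the most upstream where several were listed, were searched on both strands for 10 motifs, with overlapping matches kept. All 250 bases lay inside the annotated gene for *Gabra5*, *Gabrb2*, *Glra2*, *Gria2*, *Grik2*, *Grik3*, *Grik4*, *Grik5* and *Grin2d*. For *Gabre* 107 bases did, for *Grin2c* 54 and for *Gabrq* 15. Printed here are the windows of the adjacent pair *Gabra3* and *Gabrq*, both higher in the sorted neurons, and of *Gria4*, an AMPA subunit, written 5′ to 3′ on the strand of the gene with motif matches in capitals. *Gabra3* (chrX:72656920-72657169, minus strand) is shown for the most upstream of its 2 starts in the table, *Gabrq* at chrX:72824928-72825177 (plus strand) and *Gria4* at chr9:4796235-4796484 (minus strand).
Gabra3: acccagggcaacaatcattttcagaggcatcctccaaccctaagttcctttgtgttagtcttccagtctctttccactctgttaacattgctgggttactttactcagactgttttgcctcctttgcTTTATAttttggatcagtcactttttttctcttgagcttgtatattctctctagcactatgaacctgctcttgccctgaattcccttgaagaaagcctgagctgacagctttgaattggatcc
Gabrq: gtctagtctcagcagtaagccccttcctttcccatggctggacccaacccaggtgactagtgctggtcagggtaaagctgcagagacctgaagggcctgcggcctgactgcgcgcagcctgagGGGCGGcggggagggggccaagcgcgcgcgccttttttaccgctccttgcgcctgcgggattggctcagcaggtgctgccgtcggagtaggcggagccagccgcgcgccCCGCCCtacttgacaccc
Gria4: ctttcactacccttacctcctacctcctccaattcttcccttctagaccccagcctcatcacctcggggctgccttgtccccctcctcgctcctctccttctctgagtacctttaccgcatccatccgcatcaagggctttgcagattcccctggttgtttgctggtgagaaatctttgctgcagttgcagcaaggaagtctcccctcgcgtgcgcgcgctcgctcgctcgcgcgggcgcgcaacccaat
The neighbours differed in composition. The *Gabra3* window had a GC content of 42.4% with a TATA-box match (TATAAA, printed as TTTATA on this strand). This match lay on the opposite strand, with its first printed base at -123 from the start. The *Gabrq* window had 67.2% with 2 GC-box matches (GGGCGG). The *Gria4* window had 58.8% and held none of the motifs, beside a median of 52.4% over 32851 promoters.

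The LEF1/TCF motif (CTTTGAT) was in 0 of the 23 windows and in 3.21% of all promoters, and the NR4A2 motif (AAAGGTCA) in 0 and 1.34%. The FOXA motif (TGTTTAC) and the CRE half-site (TGACGT) were likewise in 0, against 3.17% and 6.47%. The PITX motif (GGATTA) was found for *Gabra2* only and TAATTA for *Gabrg1* only, with shares of 6.25% and 4.84% over all promoters. The GATA motif, AGATAA, was found for *Grin2d* only, against 9.99%. An E-box, spelled CAGCTG, was found for *Glra3* only, against 13.0%. The GC box was in 13 of the 23, or 56.5%, and in 32.7% of all promoters, and the TATA box in 3 (*Gabra3*, *Gabrb2* and *Glra2*), or 13.0% against 12.4%. These are matches of letters in a short window and no measurement of binding. Apart from *Gabra3*, *Gabra6*, *Gabrg1* and *Glra2*, the windows had a GC content above the median of 52.4% over all promoters. The shares were not matched for GC content, so the higher share of the GC box has no matched reference. Several windows with a match lay inside the annotated gene, among them those of *Grin2d*, *Gabrb2* and *Glra2*.

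The comparison of E14.5 with E13.5 asks what changes as sorted neurons mature by a day. Of the 31 subunits, 0 were called, and 0% of all probe sets were (limma over 4 arrays, FDR < 10%). At an unadjusted p under 0.05, 1 subunit was higher and 1 lower, against 955 and 1201 of all probe sets. These were *Grik1*, with a difference of 0.59 and a 95% interval of 0.15 to 1.03, and *Grik3*, with a difference of -0.70 and an interval of -1.20 to -0.20, both at an adjusted p of 0.744. Both E13.5 arrays of *Grik1* were below the low-signal level. *Gabra5* had the widest difference, 1.00, but its arrays overlapped and its interval ran from -0.41 to 2.40. Arrays did not overlap for 9 subunits that were higher and 3 that were lower, beside 18.0% of all probe sets in each direction.

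Genes that make, move or hold the transmitters and their receptors were read from 5 lists. In the list of GABA and glycine synthesis, transport and chloride, 3 of 10 measured genes were lower in the mdDA than in the lateral domain and 0 higher, and 4 were higher in the sorted neurons than in the mdDA domain. *Gad2*, a GABA-synthesising enzyme, had log2 levels of 8.45 and 8.23 in the lateral domain, 5.29 and 5.31 in the mdDA domain, 7.95 and 7.56 in E13.5 neurons and 7.97 and 7.83 in E14.5 neurons. The mdDA domain differed from the lateral domain by -3.04 (adjusted p = 0.0241) and the sorted neurons exceeded the mdDA domain by 2.53 (adjusted p = 9.88e-04). *Gad1* gave -2.91 (adjusted p = 0.0340) and 0.67 (adjusted p = 0.0921), and *Slc32a1*, the vesicular carrier of GABA and glycine, -1.34 (adjusted p = 0.0623) and 2.53 (adjusted p = 7.49e-04). *Slc12a5*, the chloride exporter that makes GABA inhibitory as neurons mature, was higher in the sorted neurons by 0.86 (adjusted p = 0.0485).

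Of 8 measured genes of glutamate supply and uptake, 0 were called between the dissected domains and 2 were higher in the sorted neurons. *Slc17a6*, the vesicular glutamate transporter of the midbrain, had differences of 0.63 (adjusted p = 0.194) and -0.35 (adjusted p = 0.120), and *Glul*, glutamine synthetase, of -0.09 (adjusted p = 0.939) and 0.16 (adjusted p = 0.719). The neuronal glutamate transporter *Slc1a1* was higher in the sorted neurons by 1.26 (adjusted p = 0.00782) and *Slc1a2* by 0.38 (adjusted p = 0.0571). *Slc1a1* was above the low-signal level on 5 arrays. On the mdDA arrays it was at 4.26 and 4.34, against low-signal levels of 4.50 and 4.33.

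Auxiliary subunits set the trafficking and gating of AMPA and kainate receptors. Of 13 measured, 2 were higher in the mdDA than in the lateral domain and 5 in the sorted neurons than in the mdDA domain, with 0 lower in either. *Shisa6*, which keeps AMPA receptors at synapses, had log2 levels of 4.94 and 4.66 in the lateral domain, 7.62 and 7.68 in the mdDA domain, 8.65 and 8.62 in E13.5 neurons and 7.69 and 7.65 in E14.5 neurons, with the lateral domain far below the other arrays. It differed between the dissected domains by 2.85 (adjusted p = 0.0301), or 7.20-fold, and *Cacng4* by 1.04 (adjusted p = 0.0805). *Cacng3*, another transmembrane AMPA receptor regulator, had log2 levels of 3.48 and 3.79 in the lateral domain, 4.60 and 4.43 in the mdDA domain, 7.19 and 7.11 in E13.5 neurons and 7.92 and 7.35 in E14.5 neurons. It rose in the sorted neurons by 2.88 (adjusted p = 0.00154), or 7.35-fold, followed by *Shisa9* at 0.86, *Cnih2* at 0.57 and *Cacng4* at 0.54. The remaining gene was *Shisa6* at 0.50 (adjusted p = 0.0426), whose E13.5 arrays were above the mdDA arrays while its E14.5 arrays overlapped them.

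Scaffold proteins hold the receptors opposite the release site. Of 20 measured genes of the excitatory scaffold, 2 were higher in the mdDA than in the lateral domain, *Dlg2* (PSD-93) by 1.15 (adjusted p = 0.0720) and the synapse organiser *Lrrtm2* by 1.01 (adjusted p = 0.0865). In the sorted neurons 5 were higher and 3 lower than in the mdDA domain, with *Dlg2* at 1.37 (adjusted p = 0.00585), *Lrrtm2* at 0.84 (adjusted p = 0.0132), *Nptx2* at -0.88 (adjusted p = 0.00952) and *Lrrtm1* at -0.82 (adjusted p = 0.0636). Of 10 measured genes of inhibitory scaffold and assembly, 2 were higher in the mdDA domain, *Shisa7* by 1.49 (adjusted p = 0.0586) and *Iqsec3* by 1.10 (adjusted p = 0.0834). In the sorted neurons 4 were higher, *Gabarapl1* by 0.95, *Lhfpl4* by 0.52, *Gabarap* by 0.42 and gephyrin (*Gphn*) by 0.41. No gene of the 5 lists was called between E14.5 and E13.5.

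**Figure D4:**
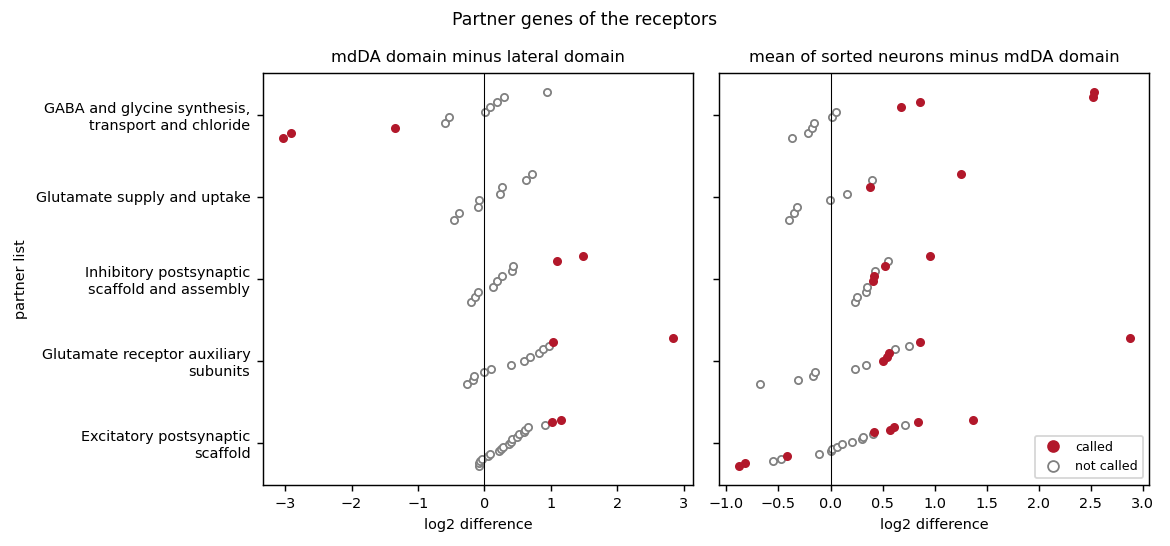
Log2 difference (horizontal axis) of each gene of the 5 partner lists (vertical axis), for the mdDA minus the lateral domain on the left and the mean of the sorted neurons minus the mdDA domain on the right, with filled points for genes at FDR < 10%. *Gad2* and *Gad1* lie near -3 on the left, *Shisa6* at 2.85 on the left and *Cacng3* at 2.88 on the right.

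Cell type markers were read beside these values. Of 10 mdDA neuron markers, 9 were higher in the mdDA than in the lateral domain and 6 in the sorted neurons than in the mdDA domain. Of 7 GABAergic neuron markers, 6 were lower in the mdDA domain and 4 higher in the sorted neurons. *Gad1*, *Gad2* and *Slc32a1* are also in the list of GABA and glycine synthesis, so their calls were already counted there. The other marker called in the sorted neurons was *Gata3* (0.88, adjusted p = 0.0168, limma), while *Tal1*, *Tal2* and *Gata2* were not called. The mean log2 level of the 7 markers was 7.72 and 7.52 in the lateral domain, 4.92 and 4.73 in the mdDA domain and 5.55 to 6.01 in the sorted neurons. Of 7 neural progenitor markers, 4 were lower in the mdDA domain and 7 lower in the sorted neurons, with mean levels of 8.27 and 8.31 in the lateral domain, 7.12 on both mdDA arrays and 5.52 to 5.75 in the sorted neurons. Of 8 pan-neuronal markers, 1 was higher in the mdDA domain, and 2 were higher and 1 lower in the sorted neurons. Their mean level was 9.14 and 9.12 in the lateral domain, 9.66 and 9.71 in the mdDA domain and 9.67 to 9.83 in the sorted neurons. None of 6 microglia markers or of 5 markers of astrocytes and the oligodendrocyte lineage was called in either comparison, and 3 of 5 endothelial markers were lower in the sorted neurons. The 3 measured blood markers had mean levels of 8.8 to 9.0 in the dissected domains and 3.9 to 4.1 in the sorted neurons. The part of other cell types and of neuron content in the subunit differences was not tested.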

How the data were processed

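Samples of 4 groups were measured on 8 Affymetrix Mouse Gene ST arrays. For the dissected domains, the paper states that total RNA was isolated with an RNeasy FFPE kit and amplified, and that amplified cDNA was hybridised. For the sorted neurons it refers to an earlier report. The authors summarised the arrays by RMA with sketch-quantile normalization in Expression Console 1.2 and deposited log2 values for 35556 probe sets. The genome build behind the annotation is not given in the sources used here. Of the probe sets, 21789 had 1 gene symbol, 1621 several and 12146 none, and only those with 1 were named. The members and lists were chosen with earlier results of these data known.

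Differences were tested on the deposited log2 values with limma 3.58.1 in R 4.3.3 and p-values adjusted after Benjamini-Hochberg across the whole array (FDR < 10%). The mdDA and lateral domains were compared with the replicate number as a block, since the study used a paired limma test, which leaves 1 residual degree of freedom before moderation. The deviations of equally numbered arrays of these groups from their group means correlated at -0.01, so that the numbers do not visibly pair the arrays. The other comparisons had no block. The scripts were tested on simulated data, where known changes were recovered and the blocked fit made more false calls than its nominal rate. Every array's value was given for each member called in at least 1 comparison. Of each partner list, the difference was given for up to 4 called genes with the widest difference, or the 2 with the highest mean where none was called. The values of *Isl1*, *Pou4f1* and *Nefl*, and of partner genes on every array, were added after they were seen. The number of arrays limits the precision. Alternatives were the block, the arrays fitted, scaling, a filter on dim probe sets, the threshold and leaving out each array. Fits that left out an array had no block in any comparison. Promoters were read with Python 3.11.15, and figures drawn with matplotlib 3.10.9.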

Additional observations from a re-analysis of the deposited data

How the results depend on the processing

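No called member changed direction under any alternative run. Between the mdDA and lateral domains the 8 higher and 0 lower subunits became 3 and 0 at a false discovery rate below 5%, 13 and 1 when testing was restricted to probe sets of 1 symbol, and 8 and 1 with a filter on dim probe sets. They became 9 and 1 with a trended and robust prior. With no replicate block the counts were 10 and 1, which added *Gabra2*, *Gabra5*, *Gabrb2* and *Grik2* (lower) and lost *Glra2*. A fit of all 8 arrays with no block also gave 8 and 0, of which 6 were shared, with *Gabra3* and *Glra2* lost and *Gabrb2* and *Gabrq* gained. Leaving out 1 array at a time gave 0 to 3 higher and 0 lower. Between the sorted neurons and the mdDA domain the 7 higher and 2 lower became 12 and 1 with arrays centred on their medians, a scaling that moved the median difference of all genes from -0.05 to 0.14, and 8 and 3 with that restriction. With a replicate block, and with only the 6 arrays compared, they were 6 and 2, without *Gabrd*, and leaving out 1 array at a time gave 1 to 8 higher and 1 to 3 lower. The E14.5 and E13.5 neurons gave 0 in each direction throughout. The cause of these shifts was not tested, beyond the fewer arrays of the latter fits. Subunits near the low-signal level, *Gabrd* among them, are limited by signal over background.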

Other observations

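The rarer subunit genes outside the list were also read, chosen after the data were seen. *Gabrp*, *Gabrr1*, *Gabrr2*, *Gabrr3* and *Glra4* were above the low-signal level on none of the 8 arrays. *Grin3b*, the second GluN3 subunit gene, was above it on all 8, with log2 levels of 4.86 and 5.04 in the lateral domain, 5.07 and 4.75 in the mdDA domain, 4.71 and 4.70 in E13.5 neurons and 4.49 and 4.23 in E14.5 neurons. It was called in no comparison, with a log2 difference of -0.04 between the dissected domains (adjusted p = 0.967) and of -0.38 between the sorted neurons and the mdDA domain (adjusted p = 0.142, limma).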
